A study of Mus musculus with 2 samples.

Results

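The cells described here are non-cycling plasma cells of the mouse small intestine lamina propria whose leading heavy chain transcript was Igha and whose leading light chain transcript was Igkc. They were chosen from measured counts of unique molecular identifiers (UMIs, one per captured transcript molecule). A barcode counted as a kept cell when it reached 1000 UMIs and 500 genes while mitochondrial genes took no more than 10% of its UMIs. A kept cell was a member when at least 20% of its UMIs lay on 11 immunoglobulin genes (10 constant region genes and Jchain), it had no UMI of Cd3d, Cd3e or Cd3g and it had at least 1 UMI of Xbp1. Igha also had to be the highest of 6 heavy chain genes, Igkc had to exceed the sum of Iglc1, Iglc2 and Iglc3, and Mki67 and Top2a could not both be detected. This rule selected 12446 of 25120 kept cells.

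The data were 2 droplet libraries of 3′ transcript ends (10x Genomics), with 1 library per genotype. One came from Aster-A F/F mice, which carry the floxed Gramd1a allele (Gramd1a encodes Aster-A) without Cre and are called F/F here, and the other from CD4-Cre; Aster-A F/F mice, called CD4-Cre here. Both groups were female littermates aged 10 to 12 weeks that had fasted for 16 h and received olive oil by gavage for 2 h. From each mouse 100000 live CD45+ EPCAM- Ter119- CD31- cells were sorted, and sorted cells from 3 animals of each genotype were combined into 1 pool. Both groups carried the floxed allele. Cre under CD4 control acts in the T cell lineage and is not expected to act in plasma cells. With 1 pool per genotype no difference between the libraries could be tested, the mice of a pool could not be separated, and all intervals given below cover counting error alone. UMIs of 1 cell are not independent of each other, so the true error is larger than those intervals.

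Plasma cells are the end stage of the B lineage and are built for antibody secretion. In the gut wall most make IgA, which is joined into dimers by the J chain (Jchain) and carried across the epithelium into the lumen. Xbp1, Irf4 and Prdm1 (which encodes Blimp-1) are the transcription factors known for this state, and the endoplasmic reticulum (ER) of these cells is enlarged to fold and export immunoglobulin chains.

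The F/F matrix held 222838658 UMIs over 2307624 barcodes and the CD4-Cre matrix 200580083 UMIs over 2270301 barcodes, of which 12594 and 12526 barcodes were kept. Among kept cells 47 barcodes occurred in both libraries, 10 of them as members in both. No gene of this report checks the deletion: which exons are floxed was not stated in the labels, and a 3′ tag of Gramd1a can be read from an allele that lacks other exons.

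Members made up 6807 of 12594 kept F/F cells (54.0%, exact Clopper-Pearson 95% interval 53.2 to 54.9) and 5639 of 12526 kept CD4-Cre cells (45.0%, 44.1 to 45.9). The share was thus lower in the CD4-Cre library, and in the same library the share of cells with at least 3 CD3 UMIs and under 20% immunoglobulin UMIs, called CD3 cells below, was higher, at 23.7% (2970 cells) against 14.5% (1826 cells). Shares of one total move against each other, so a change in either type and a change in the other cannot be told apart. Without the condition on CD3 transcripts the rule selected 7532 F/F cells (59.8%, 58.9 to 60.7) and 6580 CD4-Cre cells (52.5%, 51.7 to 53.4). Within non-cycling plasma cells the libraries were closer: IgA kappa cells were 6807 of 7168 (94.96%, 94.4 to 95.5) and 5639 of 5950 (94.8%, 94.2 to 95.3). IgA was the class of 98.9% (98.6 to 99.1) and 98.6% (98.2 to 98.8) of them, and kappa the light chain of 96.1% (95.6 to 96.5) and 96.2% (95.6 to 96.6) of those with IgA. Cycling cells were 10.4% (9.74 to 11.1) of all F/F plasma cells and 9.83% (9.13 to 10.6) of all CD4-Cre plasma cells.

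Members were deeply sampled and alike in depth between the libraries. The median member held 16515 UMIs and 2106 genes in the F/F library and 16712 UMIs and 2105 genes in the CD4-Cre library. CD3 cells were shallower, with medians of 3958 and 3674 UMIs. The median mitochondrial share was 1.67% in F/F and 1.77% in CD4-Cre members. Values at the edge of the rule were as follows, and chose the members. Cells with 18 to 20% immunoglobulin UMIs that otherwise met the rule numbered 39 in F/F and 16 in CD4-Cre, and cells with 20 to 22% numbered 39 and 21. Median UMIs in the F/F cells just outside and just inside were 16429 and 15127. Cells that failed only by having no Xbp1 UMI numbered 62 and 81 and were shallow, with medians of 2572 and 3164 UMIs. Cells that failed only by a CD3 UMI numbered 725 and 941, with medians of 18637 and 18365 UMIs.

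The 5 marker genes of the label were all abundant, and the rule used them or the cells' immunoglobulin, so their levels describe the selection. Levels are given as CPM, each gene's share of all UMIs of the members on the usual CPM scale, and levels of different genes are not compared because 3′ counts are not per length. Igha had 123673 CPM in F/F against 117174 in CD4-Cre, Igkc at 384568 and 410795 CPM, and Jchain at 55424 and 57451 CPM. Xbp1 stood at 1062 and 886 CPM, and Mzb1, a co-chaperone of immunoglobulin assembly, at 2676 and 2854 CPM. Defining markers of B and T cells were low: Ms4a1 (CD20) at 1.22 CPM and Pax5 at 0.188 CPM in F/F members, and Trac at 1.22 CPM against 395 CPM in F/F CD3 cells. RNA of myeloid and pancreatic cells was also present, as described with the comparison of the libraries.

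Immunoglobulin took most of the transcripts of a typical member. The 11 genes held a median of 57.8% of a cell's UMIs in F/F (quartiles 47.9 and 64.6) and 59.5% in CD4-Cre (49.9 and 66.5). The highest cells reached 84.4% and 86.8%. The ratio of the chains' counts, which is not a ratio of transcripts because 3′ capture differs between genes, is given only to compare the libraries: the median cell had 3.09 Igkc UMIs per Igha UMI in F/F and 3.47 in CD4-Cre, with quartiles of 2.44 and 3.88 in F/F and of 2.77 and 4.39 in CD4-Cre. Lambda transcripts were a median of 0.953% of light chain UMIs in F/F members and 0.740% in CD4-Cre members. Barcodes of 10 to 100 UMIs, which sample RNA outside cells (free RNA below), held 36.6% and 37.1% immunoglobulin UMIs, and CD3 cells a median of 3.51% and 3.54%.

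**Figure D1:**
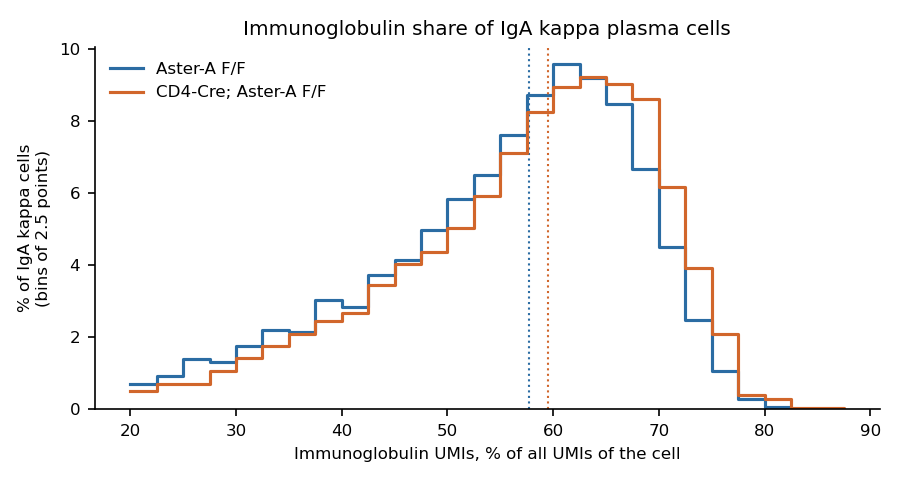
Share of each IgA kappa cell's UMIs on 11 immunoglobulin genes (x axis, percent) against the percent of cells per bin of 2.5 points (y axis), as a stepped line for each library; dotted lines mark the medians. Both curves start at the rule's limit of 20%, and the CD4-Cre median of 59.5% lies right of the F/F median of 57.8%.

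Levels of regulators, ER genes and receptors were next set against 4 other populations of the same libraries. For these comparisons levels were scaled to the UMIs outside immunoglobulin genes and Jchain (non-Ig CPM), because the share of immunoglobulin differed between populations. The populations were IgA lambda plasma cells (279 F/F and 225 CD4-Cre cells), IgM and IgG plasma cells (82 and 86), cycling plasma cells (832 and 649) and B lineage cells with at least 2 Ms4a1 UMIs, under 10% immunoglobulin and no CD3 UMI (37 and 98), a gate chosen after the data were seen. All were cut by measured genes, so these values are descriptions. A gene was compared when it reached 50 non-Ig CPM in each library on one side or the other and had an expected count of at least 20 UMIs in the smaller population, and it was counted when it differed at least 2-fold in the same direction in both libraries.

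Against Ms4a1 B lineage cells, members carried most genes of the secretory lists at higher levels and most B cell identity and MHC class II genes at lower levels. Of 3166 genes compared, 606 (19.1%) were higher and 655 (20.7%) lower in members. Higher were 19 of 20 ER entry genes, 23 of 25 ER folding genes, 12 of 16 N-glycosylation genes, 13 of 16 ER degradation genes and 15 of 23 genes of ER to Golgi traffic. Of 16 surface protein genes 10 were higher and 3 lower. Lower were 13 of 17 B cell identity genes, 8 of 9 genes of MHC class II presentation and 26 of 26 cell cycle genes. The last count moves with the gate, since the Ms4a1 cells themselves were rich in Mki67 (304 and 337 CPM of all UMIs).

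Regulators of the plasma cell state split between the populations. Xbp1, which drives the secretory program, stood at 2523 and 2210 non-Ig CPM in F/F and CD4-Cre members against 79.0 and 117 in Ms4a1 cells. Irf4 stood at 229 and 173 non-Ig CPM against 65.5 and 56.6. Prdm1 stood at 142 and 98.3 non-Ig CPM in members, and at 0 and 13.6 in Ms4a1 cells, where a count of 0 allowed up to 6.77. Pou2af1, a coactivator used throughout the B lineage, did not separate them, at 466 and 376 non-Ig CPM in members and 461 and 464 in Ms4a1 cells. Of 14 regulators compared, 6 were higher in members and 1 was lower. The higher ones include Xbp1, of which the rule required at least 1 UMI in each member, so its contrast describes the selection.

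Of 9 survival genes compared with Ms4a1 cells 6 were higher in members and 1 was lower, and the same counts held for 9 homing genes. Tnfrsf17, which encodes the survival receptor BCMA, stood at 557 and 602 non-Ig CPM in members and at 20.3 and 27.8 in Ms4a1 cells. Cd28 stood at 270.5 and 269.5 non-Ig CPM against 6.77 and 1.52, and Sdc1 (syndecan-1, CD138) at 474 and 455 against 15.8 and 16.7. The chemokine receptor Ccr10, known for homing of IgA cells to mucosal sites, stood at 835 and 807 non-Ig CPM against 54.2 and 22.7. Ccr9, known for homing to the small intestine, stood at 98.4 and 82.8 against 9.03 and 14.1. Itgb7, a chain of the gut homing integrin, stood at 205 and 235 against 27.1 and 23.2. The BAFF receptor gene Tnfrsf13c was lower in members, at 39.5 and 39.0 non-Ig CPM against 163 and 166, as was Cxcr5, which guides B cells to follicles, at 0.365 and 0.532 against 83.6 and 65.7. The share of members with a Ccr10 UMI was 91.8% (91.2 to 92.47) in F/F and 90.9% (90.1 to 91.6) in CD4-Cre, against 9.80% and 8.69% of CD3 cells. With each cell thinned to 5000 UMIs, leaving out 287 and 237 members and 1354 and 2397 CD3 cells that were shallower, these shares were 73.6% and 70.5% against 10.2% and 9.08%.

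Members kept part of the B lineage program. Cd79a, the signalling chain of the B cell receptor, stood at 905 and 990 non-Ig CPM against 1167 and 835 in Ms4a1 cells. Cd74, the invariant chain of MHC class II, stood at 4459 and 4950 against 6023 and 4768. The class II chains themselves differed: H2-Aa stood at 181 and 197 non-Ig CPM in members and at 1881 and 1227 in Ms4a1 cells. Pax5, the factor that holds B cell identity, stood at 0.446 and 1.24 against 307 and 264, and Ebf1 at 48.5 and 42.8 against 1330 and 970.

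The light chain made almost no difference to the rest of the transcriptome at this fold. Of 2535 genes compared with IgA lambda cells, 1 (0.0394%) was higher in members and 0 (0.0%) were lower. The single gene was Gm30211, at 2513 and 3186 non-Ig CPM in members and 494 and 354 in lambda cells. It is annotated as a lincRNA at chr6:70719074-70740554 (GRCm38, + strand), a span that holds Igkc (chr6:70726435-70726966, + strand), so its reads and those of the kappa locus cannot be told apart.

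IgM and IgG plasma cells differed from members in 15 of 2589 genes. In members 9 genes (0.348%) were higher: Il1rapl2, Lyz2, Pls1, Hdac9, Nrg2, Fcer1g, St6galnac3, Ly6k and Tnfrsf17. Tnfrsf17 was the one survival receptor among them, at 557 and 602 against 268 and 287 non-Ig CPM. Il1rapl2 stood at 78.1 and 61.1 non-Ig CPM in members, while IgM and IgG cells held 1 UMI in F/F (1.61 non-Ig CPM) and 0 UMIs in CD4-Cre, which by counting error allows up to 5.03. Il1rapl2 UMIs lie in few cells, as described below, so 82 and 86 cells sample it poorly and the contrast may rest on which cells were drawn. The same limit holds for Lyz2, of which the top 1% of members held 81.0% (F/F) and 82.7% (CD4-Cre) of UMIs. IgM and IgG cells held 6 Lyz2 UMIs in each library. Lyz2 and Fcer1g are on the list of myeloid RNA. In members 6 genes (0.232%) were lower: Apoe, Gm8369, Stmn1, Cyp4f18, Cks2 and Ebf1. Apoe, an apolipoprotein also abundant in macrophages, stood at 166 and 133 non-Ig CPM in members and 2972 and 3455 in IgM and IgG cells. The macrophage gene C1qa stood at 4.84 and 8.39 non-Ig CPM in those IgM and IgG cells, from few UMIs, and at 24.3 and 18.7 in members. The part of macrophage RNA in the Apoe, Lyz2 and Fcer1g levels was not tested.

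Cycling plasma cells were compared next. Of 2790 genes compared, 54 (1.94%) were higher in members and 187 (6.7%) lower. The lower genes included 23 of 23 cell cycle genes, which follows from the rule. Of 16 surface protein genes 1 was higher in members and 0 were lower, and of 14 amino acid supply genes 1 was higher and 1 lower. The following genes were chosen after their values were seen. Slpi, a secreted protease inhibitor, stood at 2205 and 2327 non-Ig CPM in members and 599 and 657 in cycling cells. Prg2 stood at 344 and 345 against 66.8 and 71.8, Cd79a at 905 and 990 against 351 and 380, and Ly6c2 at 771 and 864 against 296 and 336. Slc3a2, the shared chain of amino acid transporters, stood at 646 and 674 against 247 and 256. No gene of ER entry, ER folding, N-glycosylation, ER degradation or ER to Golgi traffic passed 2-fold between members and cycling plasma cells in both libraries. The rule left cells with 1 of the 2 cycling genes among the members: 21.8% (20.8 to 22.8) of F/F members and, in CD4-Cre, 22.9% (21.9 to 24.1) had a UMI of Mki67 or Top2a but not both.

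**Figure D2:**
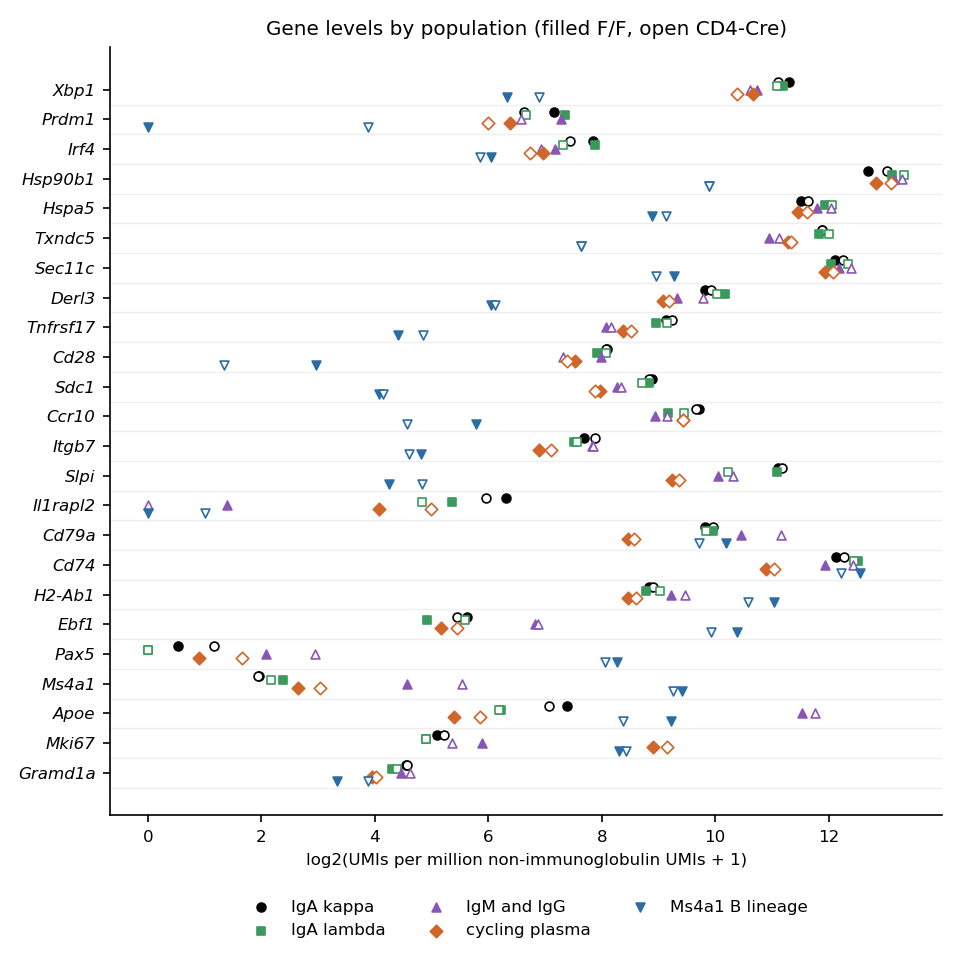
Levels of 24 genes (rows) in 5 populations as log2 of non-immunoglobulin CPM plus 1 (x axis, log scale), with filled symbols for the F/F library and open symbols for the CD4-Cre library. The 4 plasma cell populations lie together for Xbp1 and the ER genes, well right of the Ms4a1 B lineage cells, while Apoe stands apart at 2972 and 3455 in IgM and IgG cells and Il1rapl2 is highest in IgA kappa cells.

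Promoters of ER genes are shown because the members carry these genes at high levels and several of them share a known element. The ER stress response element (ERSE) is the site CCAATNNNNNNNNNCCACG, known to bind NF-Y and, under ER stress, ATF6 and XBP1. It was searched on both strands in RefSeq promoters (GRCm38.p6, 250 bases before to 50 after the start). It was found in 7 of 20 ER folding genes with a promoter in the table (35.0%) and 2 of 13 ER degradation genes (15.4%), against 37 of 27025 genes in all (0.137%) and 39 of 32851 promoters (0.119%). The other lists held 0 ERSE matches. TGACGTGG, the XBP1 core, searched likewise on both strands, was in 193 of those 27025 genes (0.714%), in 2 of 20 ER folding genes, in 2 of 13 ER degradation genes and in 5 of 24 genes of ER to Golgi traffic (20.8%). The core was also in 1 of 13 plasma cell regulators, 1 of 13 amino acid supply, 1 of 17 glycolysis and 1 of 19 interferon response genes. A match describes letters in the window and is neither a bound site nor a cause. The matches are printed with 15 flanking bases, 5′ to 3′ on the gene's strand, with the conserved ends of the element in capitals:

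Hspa5, chr2:34772010-34772058, + strand: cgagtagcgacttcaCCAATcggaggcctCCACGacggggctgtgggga
Hsp90b1, distal, chr10:86705623-86705671, - strand: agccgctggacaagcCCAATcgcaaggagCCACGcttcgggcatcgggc
Hsp90b1, proximal, chr10:86705518-86705566, - strand: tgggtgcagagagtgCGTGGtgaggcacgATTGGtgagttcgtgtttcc
Calr, chr8:84847060-84847108, - strand: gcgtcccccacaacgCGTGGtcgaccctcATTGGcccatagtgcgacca
Canx, chr11:50325785-50325833, - strand: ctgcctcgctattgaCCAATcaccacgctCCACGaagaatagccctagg
Creld2, chr15:88819505-88819553, + strand: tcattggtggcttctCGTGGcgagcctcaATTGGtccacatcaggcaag
Dnajc3, chr14:118937812-118937860, + strand: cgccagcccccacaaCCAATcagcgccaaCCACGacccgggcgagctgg
Pdia6, chr12:17266476-17266524, + strand: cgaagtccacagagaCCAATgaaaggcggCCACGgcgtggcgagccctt
Derl3, chr10:75893227-75893275, + strand: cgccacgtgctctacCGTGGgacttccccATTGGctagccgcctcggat
Syvn1, chr19:6046517-6046565, + strand: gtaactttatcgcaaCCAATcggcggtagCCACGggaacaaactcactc

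These genes encode the chaperones BiP (Hspa5) and GRP94 (Hsp90b1), the lectin chaperones calreticulin and calnexin (Calr, Canx), folding partners (Creld2, Dnajc3, Pdia6) and parts of the degradation machinery (Derl3, Syvn1). Across single members several of them moved together. The correlation of Hspa5 with Hsp90b1 was 0.70 over 6807 F/F cells and 0.70 over 5639 CD4-Cre cells, on a log scale relative to each cell's non-immunoglobulin UMIs. The correlation with Hspa5 was 0.54 and 0.53 for Calr, 0.52 and 0.53 for Creld2, 0.46 and 0.48 for Pdia6 and 0.43 and 0.45 for Dnajc3. It was 0.15 and 0.14 for Canx, which has a match too, and -0.05 and -0.06 for the disulfide isomerase Txndc5, which has no ERSE match but holds the XBP1 core motif TGACGTGG. Manf, a secreted ER stress protein, is not among the printed matches. Its correlation was 0.59 and 0.62 with Hsp90b1 and 0.575 and 0.592 with Hspa5. Derl3 and Syvn1 were not included, and the part of the element in these correlations was not tested. Xbp1 went the other way, with -0.28 and -0.26 against Hsp90b1. These are descriptions over cells that share a library and a per-cell denominator. The abundant ER entry genes Ssr4 (0.13 and 0.14) and Sec61b (0.17 and 0.15) had correlations with Hspa5 as low as that of Canx.

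Within the members, gene levels differed along the immunoglobulin share. Cells with 20 to 40%, 40 to 60% and at least 60% immunoglobulin UMIs numbered 914, 3017 and 2876 in F/F and 601, 2299 and 2739 in CD4-Cre. Their median UMIs were 15127, 14769 and 19117 in F/F, and their median genes 2513, 2175 and 1973. The bins are cut by a measure the rule used, so the contrast is a description, given as log2 of the level at 60% or more over the level at 20 to 40% on the non-Ig scale. The B cell identity list was 0.96 (F/F) and 1.03 (CD4-Cre) higher, led by Cd79a at 1.93 and 1.94. Vpreb3 was 1.04 and 1.014 higher. Xbp1 was 0.89 and 1.10 higher, Prdm1 0.85 and 0.73, Sdc1 0.77 and 0.998, and Slc3a2 1.79 and 1.85. Slpi went from 661 to 2724 non-Ig CPM in F/F and from 773 to 3030 in CD4-Cre, a log2 difference of 2.04 and 1.97.

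Other genes were lower where immunoglobulin was higher. The cell cycle list stood at log2 -1.07 in F/F and -0.87 in CD4-Cre, the cholesterol synthesis list at -0.69 and -0.59 and the glycolysis list at -0.60 and -0.54. The chaperone Hsp90b1 stood at -0.53 and -0.44, and the ER folding list at -0.26 and -0.24, while the ER degradation list stood at 0.47 and 0.45. The actin regulator Tmsb4x stood at -2.16 and -1.98 and the surface glycoprotein Cd52 at -1.27 and -1.11. The chemokine receptor Ccr10 was near level, at 0.17 and 0.26. Both libraries gave the same sign for each of these genes and lists, and the depth and gene number of the bins moved with them; their part in the result was not tested.

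**Figure D3:**
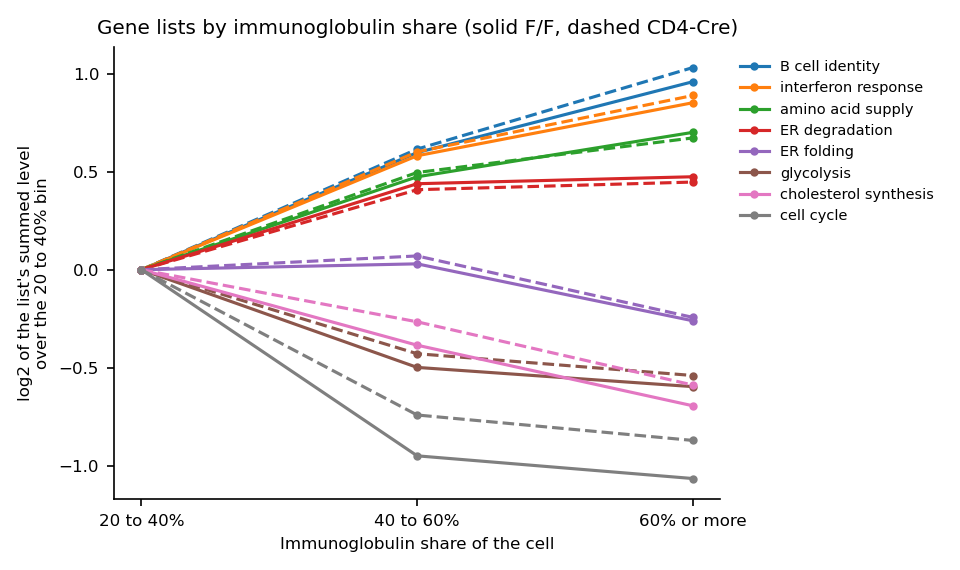
Summed level of 8 gene lists in IgA kappa cells (y axis, log2 relative to the 20 to 40% bin, non-immunoglobulin scale) in 3 bins of immunoglobulin share (x axis), with solid lines for F/F and dashed lines for CD4-Cre. B cell identity genes end highest, at 0.96 and 1.03, and cell cycle genes lowest, at -1.07 and -0.87.

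A few genes varied between members far more than counting noise gives. Over 5862 genes with a mean of at least 0.1 UMI per cell, the variance divided by its Poisson value had a median of 1.37 in F/F and 1.31 in CD4-Cre. The ratio was highest for Gm42418, at 216 and 156, where the top 1% of members held 3.73% and 3.45% of UMIs. Malat1 (66.0 and 55.85), Tmsb4x (44.0 and 51.6) and Gm26917 (44.3 and 36.3) were also high. For Tmsb4x the top 1% held 27.2% and 29.1%. Apoe had a ratio of 71.7 and 82.5, Lyz2 of 44.0 and 38.8 and Il1rapl2 of 34.8 and 27.2. In Apoe, Lyz2 and Il1rapl2 few cells held most of the transcripts. The top 1% of members held 79.2% and 76.0% of Apoe UMIs, 81.0% and 82.7% of Lyz2 UMIs and 62.7% and 71.7% of Il1rapl2 UMIs. Members with at least 10 UMIs over C1qa, C1qb, C1qc, Csf1r and Lyz2 numbered 69 in F/F and 37 in CD4-Cre. Slpi (28.8 and 30.9), Hsp90b1 (27.5 and 33.7), Mzb1 (22.1 and 23.4) and Cd52 (24.7 and 19.7) were also among the 15 highest genes, but there the top 1% of cells held at most 9.86% of UMIs.

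Il1rapl2, an interleukin-1 receptor accessory-like gene (chrX:137570608-138846946, + strand), marked a minority of members. At least 1 UMI was found in 299 F/F members (4.39%, 3.92 to 4.91) and 201 CD4-Cre members (3.56%, 3.10 to 4.08), with up to 123 and 72 UMIs in 1 cell. Among CD3 cells the shares were 0.493% and 0.438% at the lower depths given above, and with cells thinned to 5000 UMIs the shares were 3.36% and 2.85% in members against 0.636% and 0.349% in CD3 cells. Il1rapl2-positive members carried more Slpi, at 3999 and 3967 non-Ig CPM against 2122 and 2269 in members without Il1rapl2. Their Cd52 was lower, at 2005 and 1354 against 2371 and 2051 non-Ig CPM. They did not share 1 receptor: the 204 positive F/F cells with an assigned variable segment pair used 83 different pairs and the 132 positive CD4-Cre cells used 71. The pair Ighv3-3 with Igkv10-96 was in 43 of those 204 F/F cells and in 214 of 4300 members without Il1rapl2. In CD4-Cre the pair Ighv1-69 with Igkv10-96 was in 21 of the 132 positive cells and in 146 of 3513 without.

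Variable segments were not used by the rule. Each antibody chain uses 1 of many germline V segments, and a segment was assigned where it had at least 3 UMIs and at least 80% of the cell's UMIs of its kind. Both a heavy and a kappa segment were assigned in 4504 F/F and 3645 CD4-Cre members. They formed 855 and 876 different pairs, of which 383 and 406 were seen in 1 cell. A pair of segments is not a clone, since junctions are not read by 3′ tags. The 10 most frequent pairs held 20.6% (19.4 to 21.8) of the paired F/F cells and, in the CD4-Cre library, 17.1% (15.9 to 18.4). The effective number of pairs (the inverse of the summed squared shares) was 122 in F/F and 158 in CD4-Cre. The libraries shared 346 pairs, which are 40.5% of F/F and 39.5% of CD4-Cre pairs and hold 60.4% and 58.8% of their paired cells, and 4 pairs were among the 10 most frequent of both.

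Igkv10-96 was the most frequent kappa segment in both libraries, at 15.8% (14.9 to 16.9) of F/F members with a kappa segment and 10.2% (9.32 to 11.1) of CD4-Cre members. Igkv12-46 followed, at 7.72% (7.02 to 8.48) and 8.03% (7.25 to 8.88). The heavy segments Ighv1-9 (6.17% and 4.82%), Ighv3-6 (5.60% and 4.50%) and Ighv1-26 (3.88% and 5.48%) were frequent in both. Over segments, the use in F/F and CD4-Cre had a correlation of 0.83 for 95 heavy and 0.91 for 83 kappa segments, whose points share the mouse strain and the alignment.

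The germline ends of the segments that set the leading pairs are printed because assignment rests on a few bases between relatives. Igkv10-96 (chr6:68631963-68632442, - strand) and Igkv10-94 (chr6:68704508-68704978, - strand) have the same base at 331 of 359 alignment positions (92.2%). Their coding lengths are 359 and 347 bases, and positions in gaps count as differences. In the last 120 coding bases, aligned without gaps from the 3′ end, 12 differ and are in capitals:

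Igkv10-96: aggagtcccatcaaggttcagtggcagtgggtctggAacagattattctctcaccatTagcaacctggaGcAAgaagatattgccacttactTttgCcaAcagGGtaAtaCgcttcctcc
Igkv10-94: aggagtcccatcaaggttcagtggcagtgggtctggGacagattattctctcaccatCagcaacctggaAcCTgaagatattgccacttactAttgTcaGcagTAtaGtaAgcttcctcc

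Igkv10-96 was paired in the leading pairs with Ighv3-3 (chr12:114196439-114196875, - strand) and Ighv1-69 (chr12:115623161-115623595, - strand). These heavy segments have the same base at 188 of 362 alignment positions (51.9%). With coding lengths of 296 and 351 bases, many positions lie in gaps, which count as differences, so identity over paired bases is higher. Their last 120 coding bases are shown with the last TGT, the codon of the conserved cysteine before the junction, in capitals:

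Ighv3-3: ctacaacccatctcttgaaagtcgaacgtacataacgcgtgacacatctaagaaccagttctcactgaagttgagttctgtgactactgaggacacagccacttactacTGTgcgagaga
Ighv1-69: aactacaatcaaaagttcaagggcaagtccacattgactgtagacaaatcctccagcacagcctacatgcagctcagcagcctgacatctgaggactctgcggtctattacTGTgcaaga

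Single pairs differed in frequency between the pools. Ighv3-3 with Igkv10-96 was the leading F/F pair, in 257 cells (5.71%, 5.05 to 6.42), and was in 42 CD4-Cre cells (1.15%, 0.832 to 1.55). Ighv1-69 with Igkv10-96 led in CD4-Cre, in 167 cells (4.58%, 3.93 to 5.31), and was in 58 F/F cells (1.29%, 0.979 to 1.66). Ighv5-15 with Igkv3-10 was in 84 F/F cells (1.87%) and 0 of 3645 CD4-Cre cells, which allows a share of up to 0.0823%. Ighv1-59 with Igkv6-32 was in 15 F/F (0.333%) and 105 CD4-Cre cells (2.88%). Ighv1-69 and Ighv1-59 have the same base at 96.9% of alignment positions, so cells could be exchanged between these segments by misassigned reads. With 3 mice in each pool, differences between mice and between genotypes cannot be told apart.

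The pair frequencies could be looked at again in cycling IgA kappa cells, which the rule left out and which shared the pools. Both segments were assigned in 370 F/F and 278 CD4-Cre cycling cells. Ighv5-15 with Igkv3-10 was in 10 F/F cycling cells (2.70%, 1.30 to 4.91) and in 0 of the CD4-Cre ones, which allows up to 1.08%. Ighv1-59 with Igkv6-32 was in 3 (0.811%) and 15 (5.40%, 3.05 to 8.74), and Ighv3-3 with Igkv10-96 in 9 (2.43%) and 2 (0.719%). Over 16 frequent pairs, the order of the libraries in cycling cells was that in members for 9, the opposite for 3 and level for 4, where no cycling cell carried the pair. The 3 in opposite order were Ighv1-9 with Igkv4-55 (0 F/F and 3 CD4-Cre cycling cells), Ighv3-6 with Igkv12-46 (9 and 1) and Ighv1-9 with Igkv8-21 (8 and 5), and cell numbers this small fix no order.

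**Figure D4:**
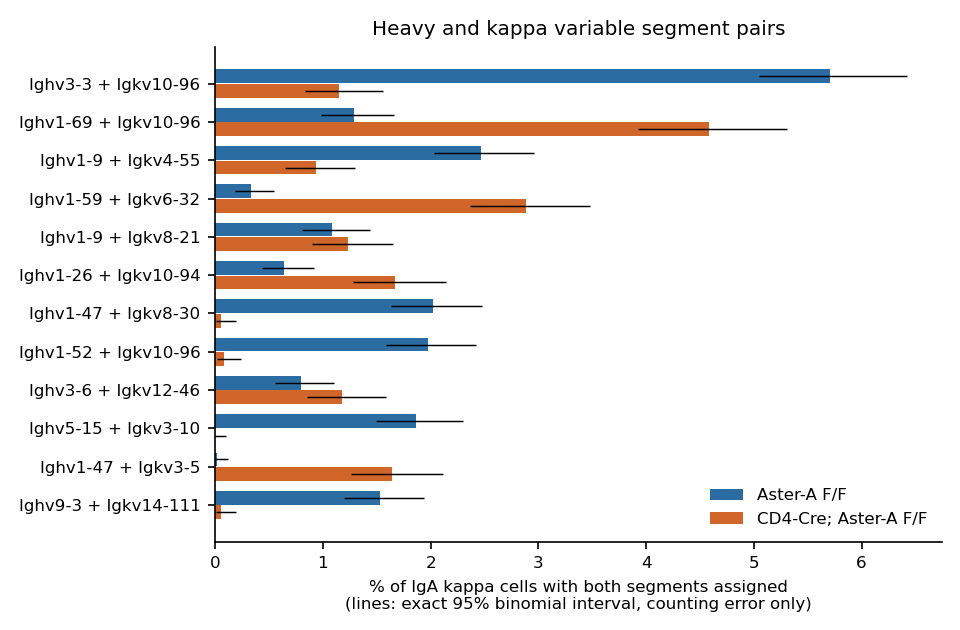
Percent of IgA kappa cells with both segments assigned (x axis) that carried each of 12 frequent heavy and kappa segment pairs (rows), with a bar for each library and lines for the exact 95% binomial interval. Ighv3-3 with Igkv10-96 reaches 5.71% in F/F against 1.15% in CD4-Cre, and Ighv1-69 with Igkv10-96 reaches 1.29% against 4.58%.

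The last comparison set the CD4-Cre members against the F/F members, on summed UMIs (98420394 and 117269917) scaled to CPM. It asks whether plasma cells in the mice with Cre in T cells differ from those without it. A gene was counted when its CPM ratio was at least 1.5 or at most 1/1.5, with at least 100 UMIs over both libraries and at least 20 CPM in 1 of them. Of 2788 genes, 24 (0.861%) were higher and 46 (1.65%) lower in CD4-Cre, and most of these were immunoglobulin genes or RNA of other cells. Among 103 immunoglobulin genes compared, 20 were higher and 25 lower, most of them variable segments whose use is described above. Ighg2b was lower, at 379 CPM in F/F against 167 CPM in CD4-Cre (log2 -1.18, 95% interval -1.21 to -1.15), and in CD3 cells it was higher in CD4-Cre, at 65.3 and 99.0 CPM. The pancreatic enzyme genes gave 9 of the lower genes and the gastric gene Tff2 was 1 of the higher genes. This left 3 higher and 12 lower genes of 2671. With levels and the CPM minimum on the non-immunoglobulin scale these counts were 8 and 17, and 6 of the 12 lower genes were no longer past the fold.

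RNA of digestive glands differed between the libraries in every compartment. The summed pancreatic list stood at 567 CPM in F/F members and 1.53 CPM in CD4-Cre members, at 1476 and 28.7 CPM in CD3 cells, and at 1745 and 276 CPM in free RNA. In F/F 86 members (1.26%, 1.012 to 1.56) had at least 1% pancreatic UMIs, and in CD4-Cre 0 of 5639, which by the exact interval allows up to 0.0654%. The gastric list stood at 11.04 and 82.4 CPM in members. The T cell list (14 of 14 genes seen) stood at 32.6 and 37.4 CPM in members, while Cd3d, Cd3e and Cd3g were at 0 by the rule, and the myeloid list (15 of 15 seen) at 641 and 641 CPM, of which Cst3 alone gave 430 and 457 CPM. The part of these RNAs in the results below was not tested.

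Among the other genes, Mbnl1, an RNA-binding splicing regulator (chr3:60472830-60629750), stood at 188 CPM in F/F against 321 CPM in CD4-Cre members, a ratio of 1.71 (1.68 to 1.74). Gstp1, a glutathione transferase, stood at 37.1 and 59.2 CPM (ratio 1.60). Both were higher to a like extent in CD3 cells, where the log2 ratio was 0.73 for Mbnl1 and 0.63 for Gstp1, against 0.77 and 0.68 in members. Gstp1 has close copies in the genome, so part of its reads is uncertain.

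Of the 12 lower genes, several were also lower in CD3 cells. Rdm1, a gene of the RAD52 motif family, stood at 72.1 CPM in F/F against 39.7 CPM in CD4-Cre members (log2 -0.86), and its log2 ratio in CD3 cells was -1.0047. The interferon-inducible Ifi27l2a stood at 122 and 69.1 CPM (log2 -0.82, and -0.74 in CD3 cells). Hes1, a Notch target, stood at 31.8 and 18.6 CPM (log2 -0.77, and -0.76 in CD3 cells). The histone genes Hist1h2bj, Hist1h4n, Hist1h4i, Hist1h4d and Hist1h2br had log2 ratios from -0.84 to -0.59 in members, and were also below 0 in CD3 cells. Histone genes are near-identical copies, so their reads may be shared between them. The others were Gm2000, Clec2d and Gem, with log2 ratios of -0.72, -0.61 and -0.61.

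Prdm1 was the only one of the 12 with a log2 ratio above 0 in CD3 cells. It stood at 59.7 CPM in F/F against 39.4 CPM in CD4-Cre members, a ratio of 0.660 (0.635 to 0.687), and at 33.3 and 36.04 CPM in CD3 cells (log2 0.11, -0.10 to 0.33). In members its log2 ratio of -0.60 became -0.53, below 1.5-fold, when levels were scaled to non-immunoglobulin UMIs. Several other regulators were lower too without reaching 1.5-fold. Irf4 stood at 96.5 and 69.4 CPM (log2 -0.48), Xbp1 at 1062 and 886 CPM (log2 -0.26), Pou2af1 at 196 and 151 CPM (log2 -0.38) and Tent5c, an RNA polyadenylation enzyme, at 284 and 228 CPM (log2 -0.31). Zbtb20 was on the other side, at 253 and 279 CPM (log2 0.14). Of the 15 regulators, 13 were below 0, with a median of -0.17. Over all 14927 genes with at least 20 UMIs, the limit used for lists, 8597 were below 0, with a median of -0.04. Over the 2788 genes tested, 1453 were below 0, with a median of -0.01. Of 13 regulators tested 1 passed the fold. In CD3 cells the regulator list had a median of -0.06, while Irf4 (-0.40), Pou2af1 (-0.35) and Xbp1 (-0.37) were lower there too. CD3 cells also carried RNA of plasma cell genes. Their median immunoglobulin share was 3.51% (F/F) and 3.54% (CD4-Cre), and their Mzb1 level 317 (F/F) and 358 CPM (CD4-Cre). The part of such RNA in the CD3 cell ratios of this report was not tested.

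The secretory lists lay close to 0, and none of their genes that met the count and CPM limits passed 1.5-fold. Few genes outside immunoglobulin and other cell types did so, 3 higher and 12 lower of 2671. Among all genes with at least 20 UMIs, 6330 of 14927 were above 0. In ER folding 20 of 25 genes were above 0, with a median log2 ratio of 0.10 (0.06 in CD3 cells). Hsp90b1 stood at 2802 CPM in F/F against 3343 CPM in CD4-Cre (log2 0.25), Pdia3 at 206 and 247 CPM (log2 0.26), Dnajc3 at 548 and 639 CPM (log2 0.22) and Hspa5 at 1227 and 1280 CPM (log2 0.06). In N-glycosylation 14 of 18 genes were above 0 (median 0.07), with Rpn1, a subunit of the transferase, at 129 and 167 CPM (log2 0.37) and the small subunit Ost4 at 160 and 124 CPM (log2 -0.37). ER entry had a median of 0.01, ER degradation 0.05 and ER to Golgi traffic 0.03. Among stress sensors, the PERK kinase gene Eif2ak3 stood at 159 and 121 CPM (log2 -0.39), while Ern1 (IRE1) stood at 143 and 134 CPM (log2 -0.10) and Atf6 at 309 and 312 CPM (log2 0.02). Of 12 genes on the stress list 6 met the limits. Below them, Ddit3 (CHOP) stood at 12.8 and 7.94 CPM (log2 -0.69) and the stress-induced Nupr1 at 5.90 and 0.853 CPM (log2 -2.79), chosen after their values were seen. Nupr1 was lower in CD4-Cre in other populations too. It stood at 14.9 and 0.586 non-Ig CPM in IgA lambda cells and at 6.88 and 0.094 in cycling plasma cells. Pancreatic RNA also differed between the libraries in every compartment, and its part in the Nupr1 level was not tested.

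No survival, homing or MHC class II gene that met the limits (8 of 16, 8 of 19 and 5 of 10) passed 1.5-fold. Such counts are near the share outside immunoglobulin and other cell types, where 3 of 2671 genes were higher and 12 lower. Genes below the limits could lie further out, such as the class II activator Ciita at 1.56 and 2.46 CPM (log2 0.66). Tnfrsf17 stood at 234 CPM in F/F against 241 CPM in CD4-Cre, and Mcl1, an anti-apoptotic factor that plasma cells need, at 152 and 134 CPM. The pro-apoptotic Bcl2l11 (BIM) stood at 65.8 and 48.9 CPM (log2 -0.43), and the survival list had a median of -0.08. Ccr10 stood at 351 and 324 CPM (log2 -0.12) and Ccr9 at 41.4 and 33.2 CPM (log2 -0.32). Cd74 stood at 1876 and 1985 CPM (log2 0.08). Above 0 were 9 of 10 MHC class II genes (median 0.07), against 6330 of 14927 genes with at least 20 UMIs.

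Ribosomal protein and respiratory chain genes lay mostly below 0, by small amounts. The share below 0 among all genes with at least 20 UMIs was 8597 of 14927. Of 81 cytosolic ribosomal protein genes 75 were below 0, with a median of -0.27 and 0 of 79 tested past 1.5-fold. In CD3 cells 54 of 81 were below 0, with a median of -0.13 against 0.06 over all genes tested there. Of 31 oxidative phosphorylation genes 28 were below 0 with a median of -0.30, and in CD3 cells 28 of 31 with a median of -0.29. Examples in members were Ndufa1 at 314 CPM in F/F against 231 CPM in CD4-Cre (log2 -0.44), Atp5e at 368 and 277 CPM (log2 -0.41) and Cox6c at 213 and 163 CPM (log2 -0.39), while Cox4i1 stood at 505 and 485 CPM (log2 -0.06). Immediate early and heat shock genes had a median of -0.21, with Zfp36 at 48.4 and 34.0 CPM (log2 -0.51) and Jun at 163 and 125 CPM (log2 -0.39).

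The remaining lists gave few genes past 1.5-fold. Their counts below 0 stand beside 8597 of 14927 genes with at least 20 UMIs. Of 23 interferon response genes 16 were below 0 (median -0.24, and 0.04 in CD3 cells), and 1 of 10 tested, Ifi27l2a, passed the fold. Abundant genes of that list lay on both sides of 0: Ifitm3 stood at 100.3 and 83.8 CPM (log2 -0.26), B2m, the light chain of MHC class I, at 1630 and 1719 CPM (log2 0.08), and the immunoproteasome subunit Psmb8 at 312 and 345 CPM (log2 0.15). Of 20 B cell identity genes 12 were below 0 (median -0.10), near the share over all genes with at least 20 UMIs (8597 of 14927). Cd79a stood at 381 and 397 CPM (log2 0.06) and Vpreb3 at 217 and 185 CPM (log2 -0.23). Of 17 amino acid supply genes 13 were below 0 (median -0.04), with Slc3a2 at 272 and 270 CPM (log2 -0.01). The medians of homing (0.00), surface proteins (0.01), class switching (-0.02), glycolysis (0.05) and cell cycle genes (-0.06) lay within 0.1 of 0. Among surface genes Cd52 stood at 991 and 813 CPM (log2 -0.28) and Epcam at 84.6 and 98.1 CPM (log2 0.21). Summed enterocyte genes stood at 9.18 and 6.56 CPM and erythroid and stromal genes at 16.2 and 16.5 CPM. The enterocyte sum joins genes that moved in opposite directions, all below the limits. Reg3b stood at 7.38 and 0.02 CPM and Agr2 at 0.537 and 4.97 CPM, while Lyz1 was level at 0.529 and 0.528 CPM.

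**Figure D5:**
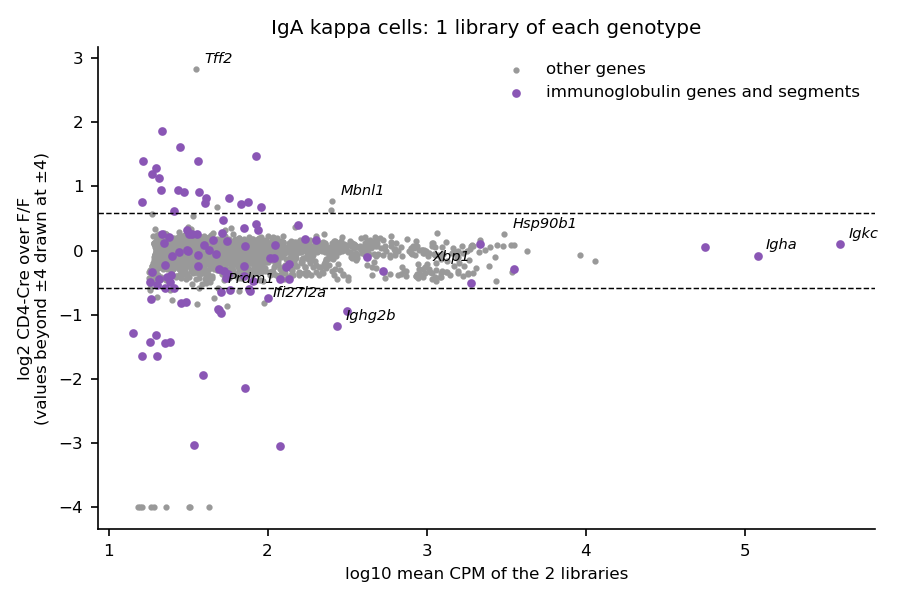
Log2 ratio of CD4-Cre over F/F (y axis) against log10 of the mean CPM (x axis) for 2788 genes in IgA kappa cells, with immunoglobulin genes and segments in purple and other genes in grey; dashed lines mark 1.5-fold and values beyond 4 are drawn at 4. Most points past the lines are immunoglobulin genes, and the pancreatic genes lie along the lower edge.

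The Aster genes lay below the minimum of 20 CPM in members. The median log2 ratios of the sterol lists lay within 0.1 of 0. Gramd1a (chr7:31130127-31155896, - strand) stood at 9.41 CPM in F/F against 9.07 CPM in CD4-Cre members, a ratio of 0.965 (0.882 to 1.06) that turned to a log2 of 0.02 on the non-immunoglobulin scale. In CD3 cells, which Cre is expected to reach, it stood at 73.1 and 61.4 CPM. Gramd1b stood at 0.640 and 0.894 CPM in members and Gramd1c at 2.94 and 3.37 CPM. The list of Aster and sterol transport genes had a median log2 ratio of -0.02 over 16 genes, led by Npc2 at 170 and 170 CPM. Of 26 cholesterol synthesis and uptake genes 15 were below 0 (median -0.09), near the share over all genes with at least 20 UMIs (8597 of 14927). The synthesis enzyme Fdps stood at 75.1 and 78.2 CPM (log2 0.06) and the regulator Srebf2 at 27.9 and 24.6 CPM (log2 -0.18). In CD3 cells the cholesterol list had a median of -0.08.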

How the data were processed

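The authors deposited whole UMI counts per gene and barcode as unfiltered matrices of 32285 genes, with no normalization. Per the submitters' processing notes, Cell Ranger 7.2.0 and Seurat 5.0.1 were used with mm10 (GRCm38); the deposited counts were used here from the start, and the Seurat cell filters and types were not used. Sequencing aimed at 50000 read pairs per cell, per the labels' protocols. The members, the 27 gene lists and the tests were chosen with earlier results of these data known. Of 520 list genes 517 were matched by symbol. Counts were summed per library over members. A log2 ratio used CPM, with exact binomial 95% intervals. List medians used genes with at least 20 UMIs and a prior count of 0.5. No doublet caller was run. A wider B cell gate and some single genes, 1 of them among the higher genes, are not reported here. Named genes were the rule's genes and markers, those past 1.5-fold outside immunoglobulin and other cell types, up to 4 per list by CPM and by bound, the most abundant and most variable genes, and the Aster family; genes of the comparisons between populations and along the immunoglobulin share, and the correlated ER genes, were chosen after their values were seen. With 1 library per group no test was possible, so a fold of 1.5 (2 between populations) stands in for one. Coordinates are from GENCODE M21 (GRCm38) and sequences of V segments from its transcripts; promoters are from RefSeq (GRCm38.p6). Scripts were tested on simulated data and ran in Python 3.11.15 with numpy 2.4.6, scipy 1.17.1 and pandas 2.3.3. Alternatives were other cell limits, scalings, gene filters and segment limits.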

Additional observations from a re-analysis of the deposited data

Results flagged for a closer look

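Genes of the stomach lining appeared in barcodes of 10 to 100 UMIs, which no comparison uses as cells. Their summed level was 612 CPM in the CD4-Cre library against 91.3 CPM in the F/F library, from 909 and 124 UMIs.

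Prdm1 had a log2 ratio of CD4-Cre over F/F of -0.60 in IgA kappa cells and of 0.11 in CD3 cells of the same libraries. The interval in CD3 cells, -0.10 to 0.33, includes 0, so the sign there is not fixed. Prdm1 was also lower in CD4-Cre in IgA lambda, IgM and IgG and cycling plasma cells. The difference between IgA kappa and CD3 cells was not tested, since each genotype is 1 library.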

How the results depend on the processing

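No paired analysis was possible because each genotype is 1 library and no test was made; leaving out a replicate was not possible either. Of the main shares, medians, counts and pair frequencies, 140 of 166 values under an alternative stayed close to the reported value. Shares and counts have no sign to change. The medians of ER folding, oxidative phosphorylation, ribosomal proteins, regulators and cholesterol synthesis kept their sign. IgA kappa cells as a share of kept F/F cells were 46.8% with an immunoglobulin limit of 40%, 55.4% with a mitochondrial limit of 5%, 57.2% with at least 3000 UMIs and 55.6% without the cells above the 95th percentile of UMIs; in CD4-Cre the first 3 settings gave 40.2%, 47.0% and 49.7%. The median immunoglobulin share became 59.7% (F/F) and 61.1% (CD4-Cre) with the 40% limit, and 58.2% in F/F with the mitochondrial limit. On the non-immunoglobulin scale, which moved all ratios by 0.07 (log2), 38 genes were higher, 8 of them neither immunoglobulin nor of other cells, and Hist1h4i, Clec2d, Gem, Prdm1, Hist1h4d and Hist1h2br were no longer past 1.5-fold. Without a CPM minimum 130 genes were higher (75 of the other kind) and 337 lower (257). At 2-fold 9 were higher (0 of the other kind) and 21 lower (0). With a segment share of 50%, the 10 most frequent pairs held 18.4% in F/F and 15.6% in CD4-Cre, and Ighv3-3 with Igkv10-96 5.03% in F/F. With 10 UMIs per segment the 10 most frequent F/F pairs held 18.3%, and Ighv3-3 with Igkv10-96 3.40% in F/F and 0.474% in CD4-Cre. The median of ER folding lay between 0.10 and 0.17, of oxidative phosphorylation between -0.30 and -0.23 and of ribosomal proteins between -0.27 and -0.20 over 10 alternatives. Leaving out cells with macrophage transcripts, chosen after seeing the data, moved the medians of B cell identity to 0.06 and of MHC class II to 0.19. Over 23 other lists, 21 of 230 values moved by over 0.1, in 11 lists. Some of these lists crossed 0, such as homing (-0.10 to 0.13), cell cycle (-0.08 to 0.10) and myeloid RNA (-0.27 to 0.05).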
